A study of Mus musculus with 2 samples.

Results

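A set of 10 genes that act as brakes on, or as readouts of, signalling from fibroblast growth factor (FGF) receptors to the kinase ERK were followed in hair follicles of the mouse. They were the Sprouty genes Spry1, Spry2 and Spry4, the Spred genes Spred1 and Spred2, the ERK phosphatase genes Dusp4, Dusp5 and Dusp6, and the ETS transcription factor genes Etv4 and Etv5. Their probe sets were found by symbol, and the array annotation gave them 28 of 45037 probe sets and 10 of 18193 genes. An Affymetrix probe set is a group of short oligonucleotides whose combined brightness, here called signal, measures 1 transcript in arbitrary units. The study looked for targets of the IIIb form of FGF receptor 2 by setting follicles of dnFGFR2-IIIb transgenic mice against follicles of wild-type mice, all at postnatal day 10. Each group was represented by 1 array. The RNA for an array was pooled from 3 mice of separate litters, each of which contributed about 100 follicles. The promoter of the transgene, the cells that carried it, the strain and the sex of the mice are not stated in the labels. There were no replicate arrays, so that the values describe these 2 pools, and no difference was tested.

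FGF receptors at the cell surface activate RAS, which sets off the RAF, MEK and ERK kinases in turn. ERK signalling then switches on genes that dampen it again. Sprouty and Spred proteins act upstream of ERK, at the level of RAS and RAF. Dusp4, Dusp5 and Dusp6 remove the activating phosphates from ERK itself. Etv4 and Etv5 belong to the PEA3 group of ETS factors and are widely used as readouts of FGF signalling in developing epithelia. In the skin, the IIIb form of FGF receptor 2 is the form found in epithelial cells, and it binds FGF7, FGF10 and FGF22.

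Signals are given as pairs, the wild-type value first and the transgenic value second. A signal was called detected above a floor of 10.5, the 40th percentile of all signals, which held for 58.7% and 61.3% of probe sets on the wild-type and transgenic arrays. None of the 27 control probe sets without a mouse target exceeded 8.5 on the wild-type array, but the brightest read 15.8 on the transgenic array, so that signals up to about that level on the transgenic array lay close to background. The ratio of 3' to 5' signal of Gapdh was 0.796 and 0.852, and that of beta-actin 1.89 and 2.06. All 11 measured hair shaft keratins and all 10 inner root sheath genes were detected on both arrays, so that the defining markers of the labelled tissue were present. Within these lists, Krt84 read 619 and 29.4, the lowest ratio of all genes detected on both arrays, and Tgm3 read 1393 and 628. The other hair shaft keratins had log2 ratios from -0.22 to 0.27. Ratios were above 1 for 7 hair shaft keratins and under 1 for 4, with sums of 70386 and 72277, and above 1 for 4 inner root sheath genes and under 1 for 6, with sums of 64563 and 62589. Sex-linked RNA differed between the pools, with Xist at 352 and 1146 and Eif2s3y at 191 and 0.40 on the wild-type and transgenic arrays. The part of this difference in the results below was not tested. In RNA from whole follicles, fewer cells of a type and less RNA per cell cannot be told apart.

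Dusp5 was the member that stood apart. Its signal was 2.81-fold lower on the transgenic array, and it was the only 1 of the 10 genes to differ at least 2-fold with both signals detected. Spry1, Dusp4 and Etv4 read between 1.52-fold and 1.62-fold lower. The remaining 6 genes, Spry2, Spry4, Spred1, Spred2, Dusp6 and Etv5, differed by up to 1.26-fold in either direction. In all, 1 of 10 genes was at least 2-fold lower, beside 1.58% of the 11565 genes detected on both arrays, and 0 were at least 2-fold higher, beside 1.6%. At least 1.5-fold lower were 4 of 10, beside 6.78% of all genes, and at least 1.5-fold higher 0 of 10, beside 6.36%.

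The sign of the smaller ratios depended on how the arrays were scaled to each other. Under the scaling used here, 8 of the 10 genes had a ratio of transgenic to wild-type signal under 1, beside 50.1% of all genes, and 2 a ratio above 1, beside 49.9%. Their median log2 ratio was -0.20, beside 0.012 over all genes. Setting the medians of the arrays equal moved the median of all genes to -0.13 and gave 296 lower and 115 higher genes in place of 183 and 185. Setting the spiked hybridisation controls equal moved it to 0.19 and gave 103 lower and 314 higher genes. Quantile normalization gave 231 lower and 140 higher genes, and loess 232 and 135. With equal spiked controls, 5 of the 10 genes had a ratio under 1, beside 27.2% of all genes. The difference between the median of the 10 genes and that of all genes moved little, and lay between -0.22 and -0.19 under the 12 settings that scaled, floored or summarised the signals.

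**Figure D1:**
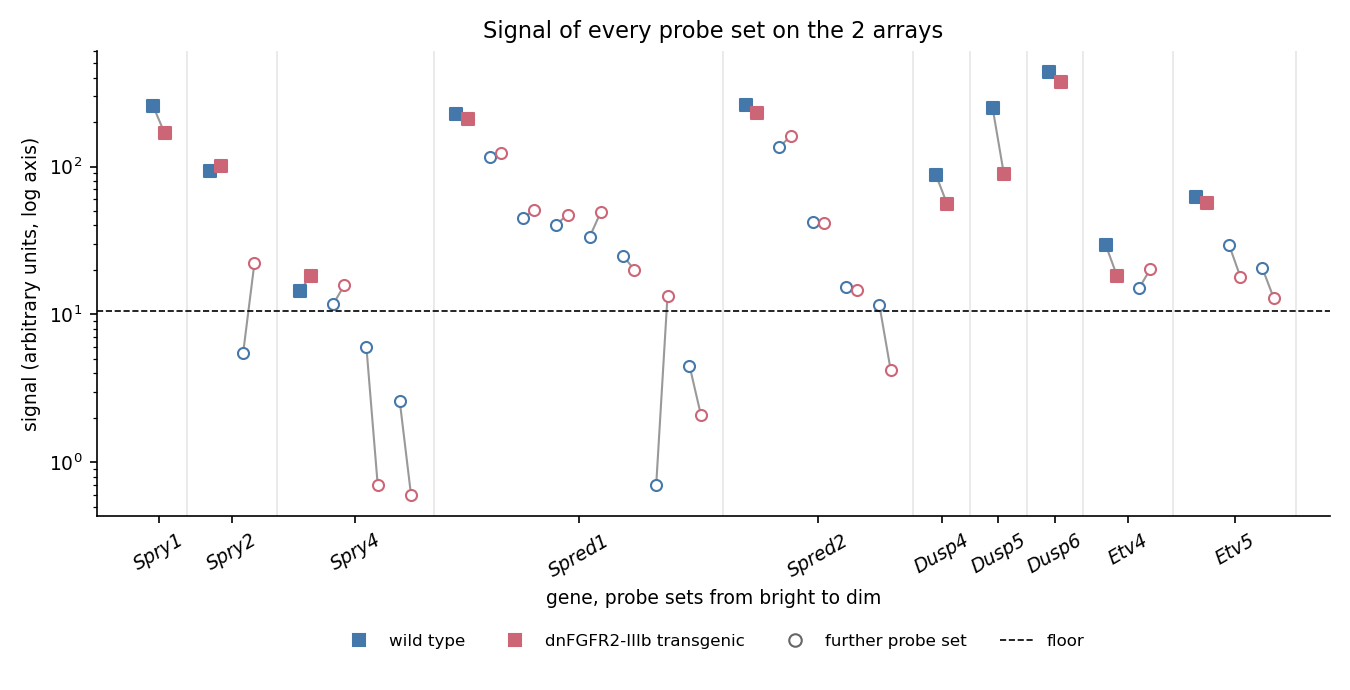
Signal of each of the 28 probe sets on the wild-type (blue) and transgenic (red) arrays, on a log axis. Squares are the brightest probe set of a gene, open circles its further probe sets, and the dashed line is the floor of 10.5. Dusp5 has the steepest line among the probe sets detected on both arrays, from 249 to 88.7.

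The ERK phosphatases each had 1 probe set. Dusp5, a nuclear phosphatase that acts on ERK with high selectivity, read 249 in the wild-type and 88.7 in the transgenic pool. This is a log2 ratio of -1.49, and 51 of 11565 genes had a lower one. Among the 6759 genes whose brighter signal was over 100, 25 had a lower ratio, and 0.725% were at least 2-fold lower. The spread of ratios among several probe sets of a gene had an SD of 0.38 on the log2 scale for genes as bright as Dusp5. The Dusp5 difference was 3.95 times this SD. Neither the spread between mice nor an error shared by the probe sets of an array is contained in this SD.

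Dusp4, the other nuclear phosphatase of the set, read 87.5 and 55.5. Its log2 ratio of -0.66 was 1.74 times the SD of 0.38 for genes of its brightness, and 5.40% of all genes had a lower ratio. Dusp6, the phosphatase that works in the cytoplasm and a common readout of FGF signalling in embryos, read 437 and 376. Its log2 ratio was -0.22, inside the SD of 0.345 between probe sets of bright genes. Dusp5 and Dusp6 were thus both well above background and differed in their ratios by more than 3 times either SD. Each SD is the spread of a single ratio, and the larger spread of a difference between ratios was not computed. With equal spiked controls, the log2 ratios were -1.30 for Dusp5, -0.46 for Dusp4 and -0.023 for Dusp6, in the same order.

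The sequences before the starts of Dusp5, the gene with the lowest ratio, of its relative Dusp6, and of Spry1, which had the next lowest ratio among genes with a window, are shown to compare the letters that ETS factors and the serum response factor read. The serum response factor binds the CArG box and, together with ETS proteins of the Elk type, carries ERK signals to promoters. Each line gives the 250 bases before the RefSeq start in build GRCm38.p6, from 5' to 3' on the strand of the gene. The windows are chr19:53528895-53529144 on the plus strand for Dusp5, chr10:99262981-99263230 on the plus strand for Dusp6 and chr3:37639697-37639946 on the plus strand for Spry1. Capitals mark the ETS core GGAA, read as TTCC where it lies on the opposite strand, and CArG boxes.
Dusp5: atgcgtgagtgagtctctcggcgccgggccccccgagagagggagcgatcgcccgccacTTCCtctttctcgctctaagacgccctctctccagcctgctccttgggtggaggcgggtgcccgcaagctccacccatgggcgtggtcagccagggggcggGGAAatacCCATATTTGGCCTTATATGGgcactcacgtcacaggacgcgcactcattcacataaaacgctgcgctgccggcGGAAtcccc
Dusp6: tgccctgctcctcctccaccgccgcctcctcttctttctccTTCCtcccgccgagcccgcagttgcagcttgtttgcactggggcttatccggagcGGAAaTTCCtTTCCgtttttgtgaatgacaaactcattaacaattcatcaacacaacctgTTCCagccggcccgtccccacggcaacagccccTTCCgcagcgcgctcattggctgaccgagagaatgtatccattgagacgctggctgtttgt
Spry1: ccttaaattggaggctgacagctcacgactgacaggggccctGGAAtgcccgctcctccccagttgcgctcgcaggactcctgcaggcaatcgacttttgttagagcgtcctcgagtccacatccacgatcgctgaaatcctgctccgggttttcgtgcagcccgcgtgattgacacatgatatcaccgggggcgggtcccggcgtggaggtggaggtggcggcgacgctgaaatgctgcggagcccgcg
The Dusp5 window held 2 CArG boxes side by side, which start 82 and 72 bases before the gene, and a GGAA just ahead of them. A CArG box was found in 1.47% of the 32817 promoter windows of this length in the mouse table, and 2 or more in 6 windows, or 0.0183%. The windows of Dusp6 and Spry1 held none. GGAA in either direction occurred 3 times before Dusp5, 6 times before Dusp6 and 1 time before Spry1. It is a common run of letters, present in 93.4% of all windows, and in 7 of the 8 windows examined for 7 of the 10 genes. For the 10 genes, but not for the count over all windows, a chromosome was left out of the search. The longer form CCGGAA was in 0 of these 8 windows and in 12.0% of all. These are matches of letters and not measured binding. Dusp5 was picked for its ratio, and CArG boxes were compared over genes only after its letters were seen. Of 124 genes with a CArG box there and detected on both arrays, 0.806% were at least 2-fold lower and 4.84% higher. Among genes with any window, these shares were 1.56% and 1.61%. The part of these letters in any ratio was not tested.

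The Sprouty genes did not share a direction under the scaling used here. Spry1 read 255 and 168 with its only probe set, a log2 ratio of -0.60, and 200 of the 6759 bright genes had a lower ratio. This is 1.59 times the SD between probe sets of genes as bright. Spry2, an inhibitor of FGF signalling in several epithelia, read 93.3 and 101, a log2 ratio of 0.12 that turned to -0.024 with equal medians. Its second probe set read 5.50, under the floor, and 22.4, at least 2.13-fold higher in the transgenic pool. Both of these signals are dim, and the brighter Spry2 probe set does not show a difference of that size.

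Spry4 was barely detected. Its brighter probe sets read 14.5 and 18.3, and 11.7 and 15.8, in the wild-type and transgenic pools. The other Spry4 probe sets, which were designed on a shared source sequence, lay under the floor on both arrays, at 6.0 and 0.70 and at 2.60 and 0.60. The log2 ratios of 0.34 and 0.43 therefore rest on transgenic signals near the 15.8 that controls without a target reached on that array. No value here shows how much Spry4 RNA the follicles held.

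The Spred genes read nearly alike on both arrays. Spred1 had 8 probe sets, of which 6 were detected on both arrays. The brightest read 226 and 211, a log2 ratio of -0.10, which became 0.090 with equal spiked controls and 0.14 as a mean over probe sets. Over the 6 probe sets the log2 ratios ran from -0.32 to 0.57 with a median of 0.14, 2 below and 4 above 0, and an SD of 0.30. A group of 3 of them share 1 source sequence and another pair share a second, so that they are not independent readings. Of the dim Spred1 probe sets, one read 0.70 and 13.4, at least 1.28-fold higher, and one lay under the floor on both arrays.

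Spred2 had 5 probe sets, and the brightest read 262 and 230. Its log2 ratio of -0.19, which became 0.004 with equal spiked controls, stood beside log2 ratios of 0.26, -0.018 and -0.077 at the other probe sets detected on both arrays. The last Spred2 probe set read 11.6 and 4.20. For both Spred genes, the probe sets scattered around 0, with an SD of 0.30 and 0.19 on the log2 scale, no more than the 0.345 to 0.50 between probe sets of genes in general.

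**Figure D2:**
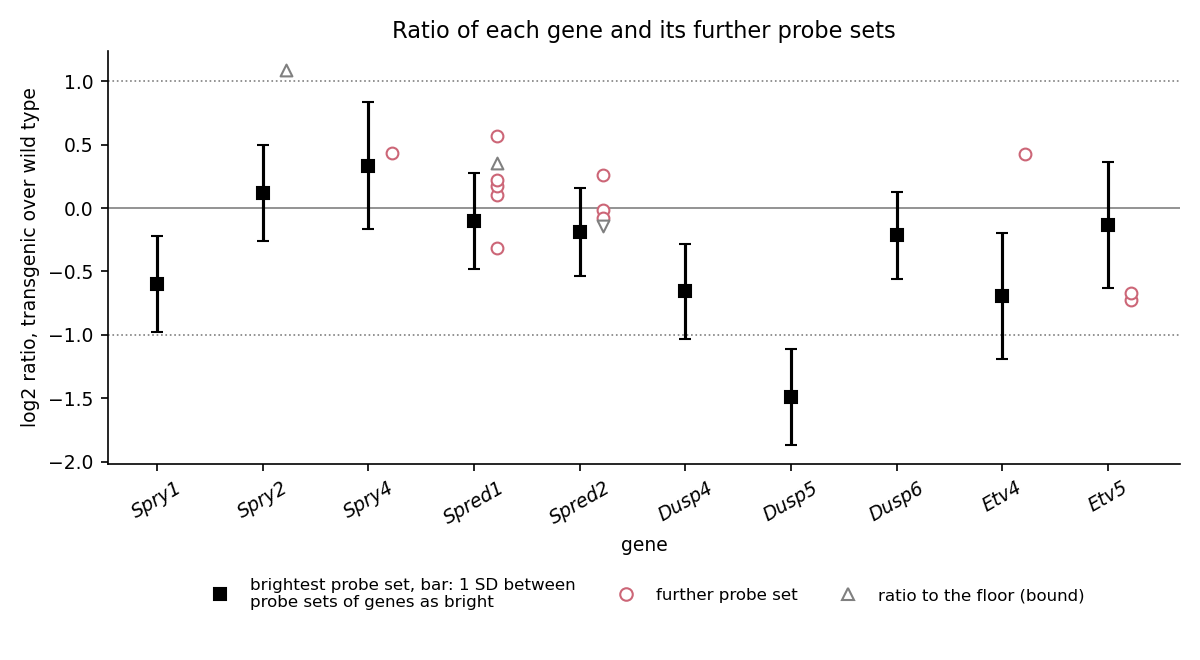
Log2 ratio of transgenic to wild-type signal for the 10 genes, with 0 for equal signals and dotted lines at 2-fold. Black squares are the brightest probe set, with a bar of 1 SD between probe sets of genes of the same brightness (0.50, 0.38 or 0.345). Open circles are further probe sets detected on both arrays, and grey triangles are ratios to the floor. The bar of Dusp5 alone lies wholly beyond 2-fold, and the Etv4 probe sets fall on opposite sides of 0.

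The PEA3 factors were dim. Etv5 read 62.5 and 57.0 with its brightest probe set, a log2 ratio of -0.13 that became 0.060 with equal spiked controls. Its other probe sets, designed on 1 shared source sequence, read 29.5 and 17.9, and 20.5 and 12.9, with log2 ratios of -0.72 and -0.67. All 3 Etv5 probe sets thus read lower on the transgenic array under the scaling used here, but by different amounts, and the median of the 3 was -0.67. The mean over the probe sets gave -0.51. Which of them follows the transcript best is not known here.

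Etv4 gave no settled direction. Its brighter probe set read 29.3 and 18.1, a log2 ratio of -0.70, or 1.40 times the SD of 0.50 between probe sets of dim genes. Its other probe set read 15.1 and 20.3, a log2 ratio of 0.43. The mean of both was -0.13. Its transgenic signals of 18.1 and 20.3 are close to the 15.8 that controls without a target reached on that array.

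Across the 28 probe sets, 22 were detected on both arrays, 3 on 1 array and 3 on neither. The share of all probe sets with a ratio under 1 was not computed, and some of the 22 share a source sequence. Of these 22, 13 had a ratio under 1 and 9 a ratio above 1. A difference of at least 2-fold was seen in 1 of them, the Dusp5 probe set, beside 1.6% of all probe sets that were at least 2-fold lower and 2.18% that were at least 2-fold higher. Where a gene had several probe sets, these did not repeat a difference of 1.5-fold or more, except in Etv5, where the pair with the shared source did so. Spry1, Dusp4, Dusp5 and Dusp6 had a single probe set each, so that no second reading exists for the genes with the largest ratios other than Etv4.

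**Figure D3:**
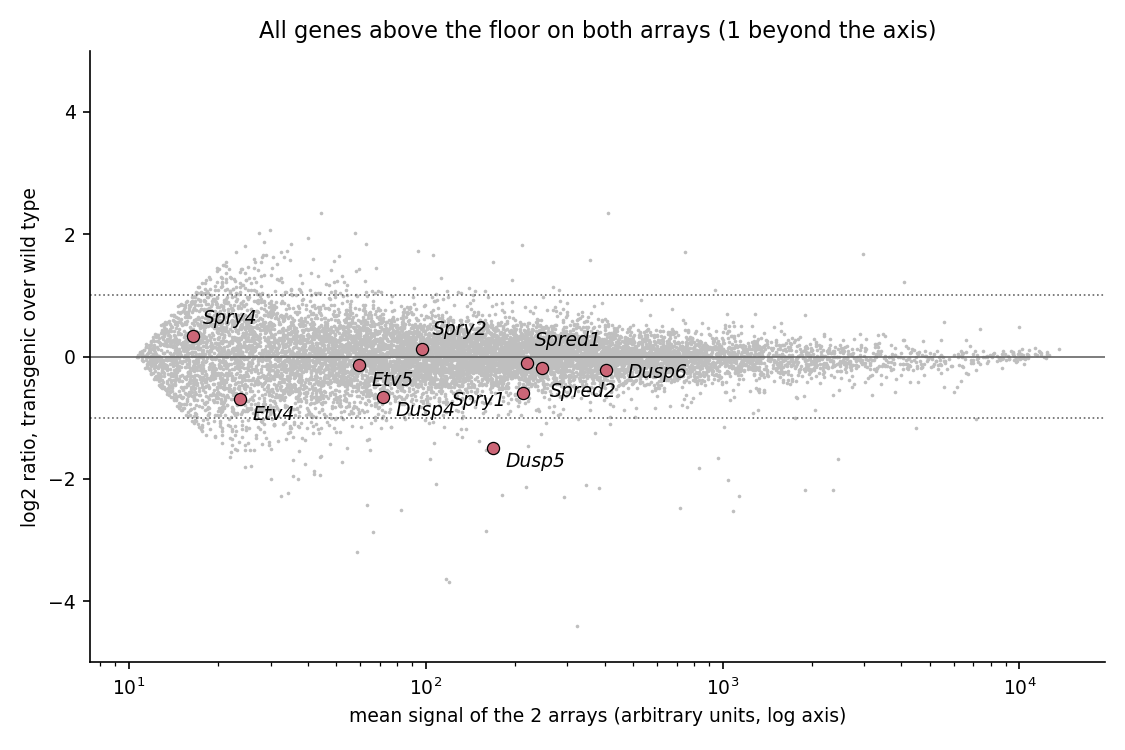
Log2 ratio of transgenic to wild-type signal against the mean signal, on a log axis, for the 11565 genes detected on both arrays (grey), with the 10 genes in red. Dotted lines mark 2-fold, and 1 gene lies beyond the axis. Dusp5 lies lower than all but 51 genes, while the other 9 genes lie inside the 2-fold lines.

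Upstream of the 10 genes, FGF receptor 2 itself read higher on the transgenic array. The brighter Fgfr2 probe set read 197 and 368, a log2 ratio of 0.90, and the next read 147 and 206, a log2 ratio of 0.49, while the third lay under the floor at 5.30 and 1.40. Whether these probe sets also read the transgene is not known here. Of the 5 genes of FGF receptors, Fgfr1 was at least 2-fold lower, at 67.9 and 30.3, but its further probe sets gave log2 ratios of 0.91 and -0.14. The Fgfr1 call was lost with equal spiked controls (-0.97), a floor of 50, a pseudocount, the mean over probe sets or the 3-fold threshold, and turned to 0.91 without the probe sets that can match several transcripts. Fgfr4 read 22.9 and 7.90, at least 2.18-fold lower against the floor. The median over the receptors was -0.46, and it turned to 0.50 without those probe sets.

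Few FGF ligands were measurable, as 4 of 11 were detected on both arrays. Fgf22, a ligand of the IIIb form that was named after its values were seen, as was Fgf10, read 416 and 389. Fgf5, the factor that ends the growth phase of the hair, read 146 and 246, a log2 ratio of 0.75, but 0.11 with the dimmer probe set. Fgf7, a ligand of the IIIb form made by the dermal papilla, read 17.4 and 9.80, and Fgf18 18.7 and 3.70, so that each lay above the floor on the wild-type array alone. Fgf10 lay under the floor on both arrays, at 1.30 and 3.00. The median over the ligands was -0.10, and 0 of them differed at least 2-fold with both signals detected.

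The genes of the kinase cascade between receptor and ERK went both ways. Of 26 measured genes, 25 were detected on both arrays, 16 with a ratio above 1 and 9 with a ratio under 1. The median log2 ratio was 0.080, and -0.063 with equal medians. Ksr1, a scaffold that holds RAF, MEK and ERK together, was the 1 gene at least 2-fold higher, at 20.1 and 42.2, and a second probe set gave a log2 ratio of 0.80, while 0 were at least 2-fold lower. The Ksr1 call was lost with equal medians (0.93), quantile normalization, loess, the higher floors, a pseudocount, the mean over probe sets, the 3-fold threshold or without the probe sets that can match several transcripts. Rras2, a relative of the RAS genes, read 194 and 115, a log2 ratio of -0.75, and its second probe set gave -0.90. Sos2, an exchange factor that loads RAS with GTP, read 108 and 69.6, a log2 ratio of -0.63.

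Other genes of the same families behaved variously. Among 10 further phosphatases of the mitogen-activated protein kinases, Dusp7, a cytoplasmic ERK phosphatase, was at least 2-fold higher, at 85.7 and 177, and further probe sets gave log2 ratios of 0.42 and 0.64. The Dusp7 call was lost with equal medians (0.90), a pseudocount (0.96), the mean over probe sets (0.70), the 3-fold threshold or without the probe sets that can match several transcripts (0.42). Dusp1, an immediate early gene, read 129 and 75.5, a log2 ratio of -0.78. The dim Dusp9 gave -0.42, but a further Dusp9 probe set read alike on both arrays, at 20.8 and 20.8. The median of this list was -0.047, or 0.18 with equal spiked controls, and 0 were at least 2-fold lower. Of 15 further ETS factors, 0 differed at least 2-fold with both signals detected. Elk1, a partner of the serum response factor, read 28.3 and 6.0, at least 2.70-fold lower against the floor, while the dim Ets1 gave a log2 ratio of 0.68 and others from -0.51 to 0.23. Etv6 gave -0.39. Of 7 further modulators of FGF signalling, 5 were detected on both arrays. The log2 ratios of their brightest probe sets ran from -0.40 for the heparan sulfatase gene Sulf1 to 0.17 for Flrt2, with Flrt3 at 0.12. Further probe sets gave 0.19 and 0.99 for Flrt2 and 0.365 for Flrt3.

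Of 19 further genes that respond to ERK, 18 were detected on both arrays, 10 with a ratio under 1 and 8 with a ratio above 1. Fosl1, which encodes the AP-1 protein FRA1, was at least 2-fold lower, at 39.9 and 16.9, a log2 ratio of -1.24. The Fosl1 call was lost with the floor at the 60th percentile or at 50, a pseudocount (-0.88), the mean over probe sets (-0.73) or the 3-fold threshold. Hbegf, an EGF receptor ligand, read 130 and 85.3, a log2 ratio of -0.61, but 0.30 with a dimmer probe set. Plaur, the urokinase receptor gene, gave -0.56. The early response genes Fos and Egr1, chosen after their values were seen, read 144 and 175, and 1554 and 1701. Errfi1 and Ier3, also chosen after their values were seen, read lower, at 1526 and 1071, and at 792 and 609. A second Errfi1 probe set gave a log2 ratio of -0.67. The median of the list was -0.14, and 0.055 with equal spiked controls. Over the 93 measured genes of the 7 pathway lists, 77 were detected on both arrays, 2 of these were at least 2-fold lower, beside 1.58% of all genes, and 2 at least 2-fold higher, beside 1.6%, and the median was 0.00, beside -0.20 for the 10 genes.

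**Figure D4:**
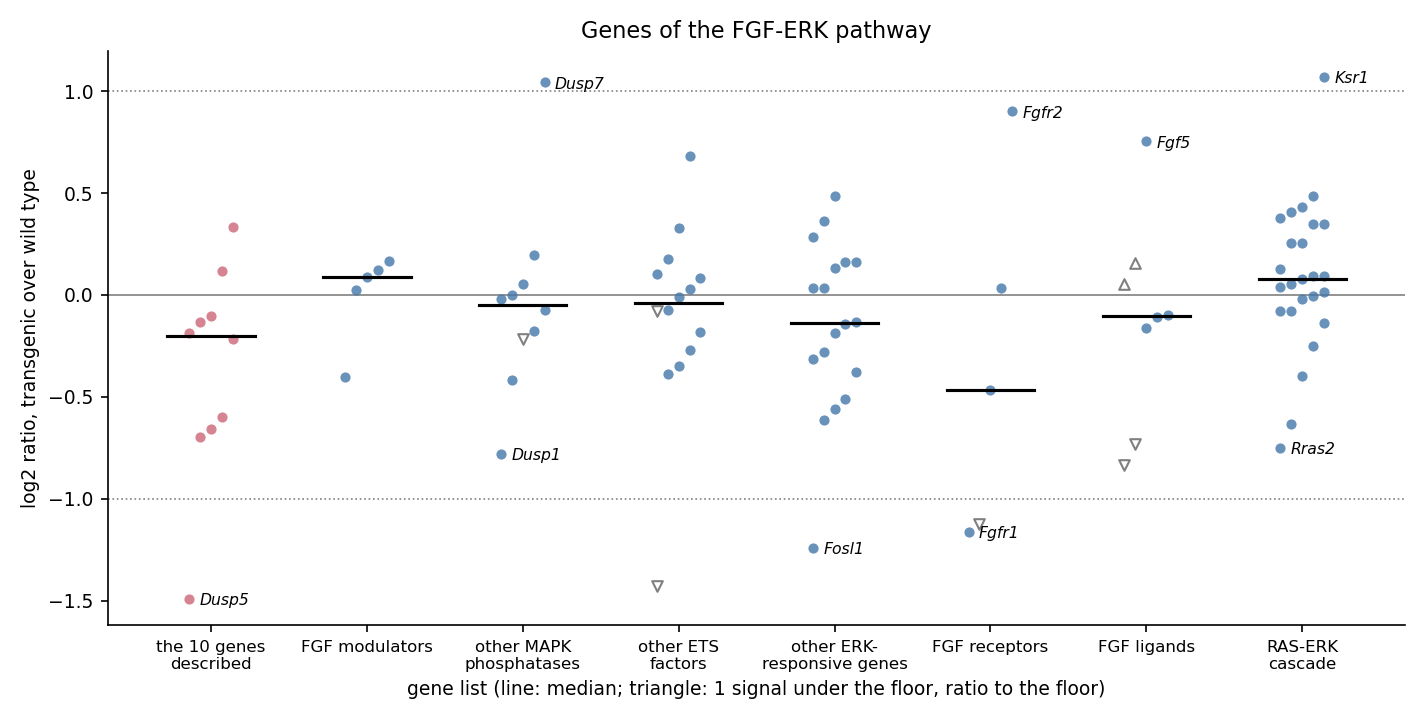
Log2 ratio of transgenic to wild-type signal for the 10 genes (red) and for the genes of 7 other lists of the pathway (blue), with the median of each list as a line and genes detected on both arrays with a log2 ratio of at least 0.70 in size named. Triangles are genes with 1 signal under the floor, placed at their ratio to the floor. The 10 genes have a median of -0.20, the cascade of 0.080 and the further ERK-responsive genes of -0.14.

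Markers of cell types differed beside these values, and ratios are counted over markers detected on both arrays. Of 10 markers of the outer root sheath and basal layer, 9 had a ratio under 1, with a median log2 ratio of -0.19 and a summed signal of 15199 and 12825. Of 9 markers of the hair matrix and precortex, 8 had a ratio above 1, with a median of 0.031 and sums of 5527 and 5877. Markers of the interfollicular epidermis went both ways, with 4 of 6 above 1 and 2 under 1. Krt77 was at least 2-fold higher, at 16.6 and 63.8, and Krt78 (10.1 and 32.3) was detected on the transgenic array alone. The median log2 ratio over the epidermal markers detected on at least 1 array was 0.61. The sums of the epidermal list, 5020 and 3194, held those of involucrin (Ivl), 3110 and 683. The defining gene Krt1 lay under the floor at 1.40 and 2.90. Dermal fibroblast markers had 6 of 8 ratios above 1 and sums of 2256 and 3102, and melanocyte markers 5 of 8 under 1 and sums of 14086 and 12962. Schwann cell markers had 5 of 6 ratios under 1, with sums of 382 and 264. Adipocyte markers had 3 of 3 ratios under 1 among those detected on both arrays and sums of 7866 and 5687. The adipocyte marker Lep went the other way, detected on the transgenic array alone and at least 2.54-fold higher. Sebaceous markers had 4 of 5 ratios under 1 and sums of 8528 and 7769. Dermal papilla markers had 6 of 7 ratios above 1 and sums of 1210 and 1087. These dermal papilla sums held the 933 and 752 of Acta2, the marker under 1. Endothelial markers had 3 of 4 ratios under 1 and sums of 128 and 129. Cdh5, the endothelial marker above 1, read 13.7 and 42.3. Kdr was detected on the transgenic array alone and Emcn on the wild-type array alone. Skeletal muscle markers had 2 of 2 ratios under 1 among those detected on both arrays and sums of 130 and 151, while Acta1 (9.40 and 37.3) and Myh4 (1.20 and 17.5) were detected on the transgenic array alone, at least 3.55-fold and 1.67-fold higher. Immune markers had 4 of 4 ratios above 1, H2-Aa (7.60 and 42.4) and C1qa (7.80 and 20.7) were detected on the transgenic array alone, and their sums of 121 and 10332 held the 20.7 and 10146 of Ighm, while the defining genes Ptprc and Cd3e lay under the floor on both arrays. The part of any of these in the ratios of the 10 genes was not tested.

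**Figure D5:**
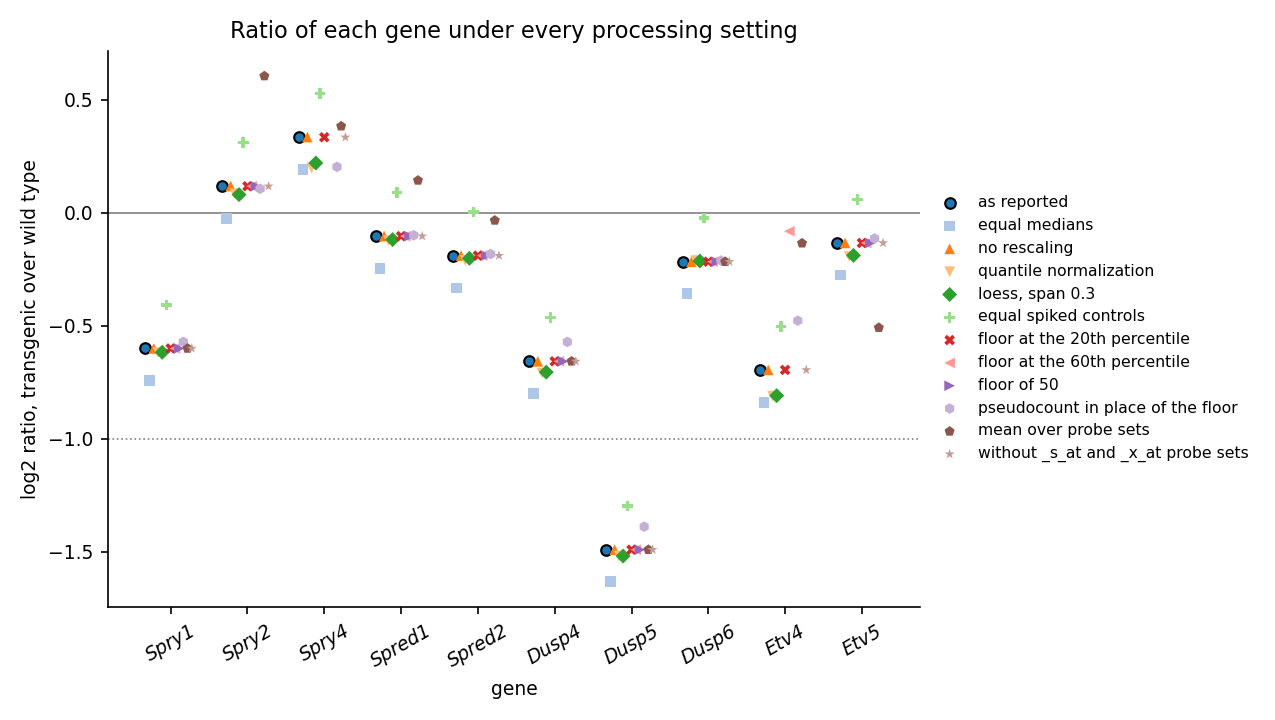
Log2 ratio of transgenic to wild-type signal for each of the 10 genes under the processing as reported (outlined) and under 11 alternatives, where the gene was detected, with the dotted line at 2-fold lower. Dusp5 lies between -1.63 and -1.30 under all of them, and Spry1, Dusp4 and Dusp6 are below 0 in each, while Spry2, Spred1, Spred2 and Etv5 cross 0.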

How the data were processed

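The 2 Affymetrix mouse 430 2.0 arrays hold linear intensities, deposited by the authors as 1 value for each probe set and scaled to a 2% trimmed mean of 100, as the values show. The summary algorithm is not given in the sources used here. After leaving out 64 control probe sets, both columns were rescaled to 1 trimmed mean, and values under the floor of 10.5 (40th percentile) were set to it. A gene was represented by its brightest probe set. A ratio with 1 signal under the floor is a bound, written "at least". A gene was called where it was detected (above the floor) on both arrays and differed 2-fold. Symbols came from the platform annotation, and all 28 probe sets of the 10 genes kept theirs in the RefSeq gene table. No probe set with several symbols was used.

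Named genes were all probe sets of the 10 genes and of Fgfr2 and, per pathway list, each 2-fold gene and the 3 of largest ratio, with exceptions marked in the text. The set of 10 genes, the lists and the settings were chosen with earlier results of these data known. Of 102 listed pathway genes, 93 had a probe set with a single symbol. The spread is the pooled SD of log2 ratios among the probe sets of a gene, by tertile of brightness. The code of the calling steps was run on simulated data with known changes. That run checked the code only. How often 2-fold calls are wrong on these arrays, or for dim genes, was not tested. With 1 array per group, the number of arrays limits the precision. Python 3.11.15, numpy 2.4.6 and pandas 2.3.3 were used.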

Additional observations from a re-analysis of the deposited data

How the results depend on the processing

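Dusp5 remained at least 2-fold lower under all alternatives but the 3-fold threshold, which called 0 of the 10 genes, while 1.5-fold called 4. The median of the 10 genes went from -0.20 to -0.010 with equal spiked controls. Among single genes, Spry2 became 0.61 as a mean over probe sets, and Etv4 -0.13 by the same rule and -0.081 with the floor at the 60th percentile. Of 184 values of single genes and lists, 168 moved by less than a set spread and 15 changed sign. For single genes this was the spread between probe sets, 0.345 to 0.498, and for list medians a smaller one, 0.095 to 0.212.

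For the 7 pathway lists, the 2 genes lower by 2-fold became 6 with the floor at the 20th percentile and at 1.5-fold, 1 with equal spiked controls, the floor at the 60th percentile or without _s_at and _x_at probe sets, and 0 with a floor of 50, a pseudocount, the mean over probe sets or 3-fold. The 2 higher ones became 5 at 1.5-fold, 1 with quantile normalization, loess, the floor at the 60th percentile or a floor of 50, and 0 with equal medians, a pseudocount, the mean over probe sets, without _s_at and _x_at probe sets or 3-fold. Their median of 0.00 became -0.14 with equal medians, 0.19 with equal spiked controls and 0.054 over probe sets. The cause was not tested. No paired analysis was possible because each group has 1 array.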

Other observations

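All genes named Dusp with a number were compared, a family chosen after its values were seen. Of 24 such genes, 21 were detected on both arrays, and their median log2 ratio was -0.021. Of these, 14 had a ratio under 1, beside 50.1% of all genes, and 7 a ratio above 1, beside 49.9%. Among the 14, Dusp19, Dusp8, Dusp10 and Dusp11 had log2 ratios between -0.021 and -0.001. Dusp5 had the lowest ratio and Dusp7 the highest. Of Dusp14, the brightest of them, the signals were 3881 and 3437. Dusp12 (83.2 and 60.5) and Dusp28 (51.8 and 38.0) gave log2 ratios of -0.46 and -0.45, and the dim Dusp13 (13.2 and 25.3) gave 0.94.

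Genes with a CArG box in the 250 bases before the start were also compared, a group chosen after the letters before Dusp5 were seen. Of 124 such genes detected on both arrays, 67 (54.0%) had a ratio under 1, beside 49.9% of the 9351 genes with any window. Their median log2 ratio was -0.020. Of them, 1 (0.806%) was at least 2-fold lower, which was Dusp5, beside 1.56% of genes with any window, and 6 (4.84%) were at least 2-fold higher, beside 1.61%. Srf, which encodes the serum response factor and is the other measured gene with 2 CArG boxes, gave a log2 ratio of -0.040.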
